A study of Mus musculus with 38 samples.

Results

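The 9 genes *Trp63*, *Klf4*, *Grhl1*, *Grhl3*, *Ovol1*, *Tfap2a*, *Gata6*, *Hopx* and *Zfp750*, all encoding regulators of transcription of the epidermis or its appendages, were taken by name from the 22089 protein-coding genes of the GENCODE annotation vM1 on mouse genome NCBI37/mm9. Their gene bodies with 100 kb on each side were examined in the 11 peak lists analysed from the 38 samples of the study, which mapped SATB1 in chromatin purified through urea. The labels give all mice as wild-type (*Satb1*+/+) C57BL/6, with primary epidermal keratinocytes of skin (2 SATB1 lists and 1 CTCF list), thymocytes (2 urea SATB1 lists, 2 standard SATB1 lists and 1 CTCF list) and brain (2 SATB1 lists). The remaining list maps base-unpairing regions (BURs), at which recombinant SATB1 bound sonicated pure thymocyte DNA in vitro. The ages in the labels disagree: skin is given as postnatal day 13 in one field and day 5 in another, brain as 5 and 6 weeks in one and day 13 in another, and thymocytes as day 13, with 6 weeks in the titles of the CTCF sample and of standard replicate 1. Thymocyte urea replicates 1 and 2 were made with 4 and 2 µl of antibody, brain replicates 1 and 2 with 10 and 12 cycles of PCR, and skin replicates 1 and 2 with 55 and 60 s of sonication. Standard replicates 1 and 2 differed in antibody and in sonication (15 and 150 s). The labels do not say whether the replicates came from separate mice, though the reporting checklist of the study describes its replicates in general as biological, with cells taken from separate animals. Spread and p-values measure the difference between these samples, which also differ in preparation as given above. Peak lists hold no expression, so the labelled cell types could not be checked against marker genes.

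SATB1 is a nuclear protein that binds BURs, regions of DNA that unpair easily under strain. A typical BUR holds several short segments, clustered together, in which one strand lacks C or lacks G. In urea ChIP-seq, crosslinked chromatin is freed of loosely held protein by centrifugation through urea before immunoprecipitation, whereas standard ChIP-seq is done on the soluble part of sheared chromatin. CTCF, profiled in the same urea chromatin, is a zinc-finger protein found at loop anchors and boundaries. In the epidermis, *Trp63* encodes p63, the factor that keeps basal cells in their lineage and that is made in long and short forms from separate start sites. *Klf4*, *Grhl1*, *Grhl3*, *Ovol1*, *Hopx* and *Zfp750* act as cells leave the basal layer and form the barrier, while *Tfap2a* (named *Tcfap2a* in this annotation) works in surface ectoderm and basal cells and *Gata6* in the upper hair follicle and sebaceous ducts.

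Sequences are shown for 4 of the 5 genes at which SATB1 had a site in both skin lists, since they show that such sites lay both on BURs and elsewhere. Each is at most 300 bases of the plus strand of NCBIM37 (mm9) around a summit, and capitals mark the longest stretch that lacks C or lacks G. The first pair are BURs under skin sites, and the second pair, chosen after their values were seen, are the skin peaks of replicate 1 at *Tfap2a* and *Grhl3*, which overlap no BUR.
Trp63, BUR in a Leprel1 intron, chr16:25988823-25989122: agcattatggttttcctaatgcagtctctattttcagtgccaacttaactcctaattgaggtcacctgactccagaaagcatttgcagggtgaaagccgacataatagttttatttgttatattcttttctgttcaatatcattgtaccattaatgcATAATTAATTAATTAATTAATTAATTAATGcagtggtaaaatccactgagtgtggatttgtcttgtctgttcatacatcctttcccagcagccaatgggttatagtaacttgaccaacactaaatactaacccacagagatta
Ovol1, BUR in a Snx32 intron, chr19:5507804-5508103: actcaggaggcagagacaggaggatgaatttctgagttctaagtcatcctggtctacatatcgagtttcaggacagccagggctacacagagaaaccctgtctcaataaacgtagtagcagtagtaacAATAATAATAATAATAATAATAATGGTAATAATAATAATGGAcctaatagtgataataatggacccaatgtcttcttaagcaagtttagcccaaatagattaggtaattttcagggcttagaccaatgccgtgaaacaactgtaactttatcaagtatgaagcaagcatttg
Tfap2a, skin SATB1 peak, chr13:40825895-40826173: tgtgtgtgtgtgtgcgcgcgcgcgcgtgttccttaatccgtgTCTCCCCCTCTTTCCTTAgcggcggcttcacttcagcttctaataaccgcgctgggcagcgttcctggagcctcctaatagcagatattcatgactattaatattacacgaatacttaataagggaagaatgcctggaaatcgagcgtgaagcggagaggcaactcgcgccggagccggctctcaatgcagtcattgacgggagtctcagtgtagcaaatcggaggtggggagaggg
Grhl3, skin SATB1 peak, chr4:135177099-135177398: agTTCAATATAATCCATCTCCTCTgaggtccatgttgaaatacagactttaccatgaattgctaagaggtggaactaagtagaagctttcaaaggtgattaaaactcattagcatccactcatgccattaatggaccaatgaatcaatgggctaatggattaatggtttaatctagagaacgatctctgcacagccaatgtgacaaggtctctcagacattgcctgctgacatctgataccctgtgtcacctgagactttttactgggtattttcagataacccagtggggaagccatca
The *Trp63* BUR was 65.7% A and T over these 300 bases with a stretch of 30 bases without C, and the *Ovol1* BUR was 63.3% A and T with a stretch of 42 bases without C. The *Tfap2a* peak was 46.2% A and T over 279 bases, and its longest such stretch was 18 bases without G. The *Grhl3* peak was 59.0% A and T with a stretch of 22 bases without G. Over whole BURs of the genome, the median was 70.7% A and T and the median longest stretch was 43 bases. Taken whole, the *Trp63* BUR had 62.9% A and T and a stretch of 41 bases, and the *Ovol1* BUR 63.3% and 72 bases. The whole sites, joined over the 6 urea lists, had 47.7% and 36 bases at *Tfap2a* and 56.8% and 22 bases at *Grhl3*. The letters ATTAAT, which read the same on both strands and were chosen after the sequences had been seen, occurred 8 times in the 300 bases around the skin summit of the *Trp63* site, 2 times at the *Grhl3* site, 1 time at *Tfap2a* and 0 times at the *Ovol1* site of the Snx32 intron. They occurred in 67.7% of all skin sites present in both lists, in 29.7% of those off BURs, in 10.9% of 300-base windows placed every 100 kb along the genome and in 4.53% of promoters of that length. Around BUR summits the share was 45.7%. Median A and T was 68.0%, 58.7%, 58.3% and 44.7% in the first 4 of these and 71.7% around BUR summits. ATTAAT holds only A and T, and the shares were not adjusted for base content. In the printed *Trp63* BUR most copies of ATTAAT overlap one another within the repeat of ATTA marked in capitals, so they are not separate sites.

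SATB1 sites around these genes were few in skin, more in thymocytes and most in brain, an order that was also that of the lengths of the lists and that turned round in lists of equal length. The 9 windows span 2190 kb. They held 10 and 10 peaks in the skin lists, 23 and 23 in the thymocyte lists and 47 and 42 in the brain lists, out of 11210 and 10846, 45049 and 38882, and 117963 and 109154 peaks in the whole lists. In lists cut to the 10846 peaks of highest −log10 q, they held 10 and 10, 7 and 8, and 4 and 4. That cut left skin replicate 2 whole and removed the weaker peaks of the thymocyte and brain lists. Weak skin peaks were thus kept where weak peaks of the other cell types were not. Of the peaks of a list, 81.0% and 83.6% overlapped the other replicate in skin, 73.3% and 84.9% in thymocytes, 77.7% and 84.3% in brain, and 45.3% and 84.3% in standard ChIP-seq.

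*Trp63*, the longest of the 9 genes at 208 kb, held 42 of the 106 BURs of the 9 windows and the most peaks in the thymocyte and brain lists. Its counts were 3 and 2 in skin, 10 and 10 in thymocytes, and 26 and 23 in brain, in the order of the lengths of the lists. Within the gene body the counts were 0 and 0 in skin, 4 and 5 in thymocytes, and 12 and 10 in brain, beside 20 BURs. Per 10000 peaks of the list, the whole window had 2.68 and 1.84 in skin, 2.22 and 2.57 in thymocytes, and 2.2 and 2.1 in brain, with overlapping ranges.

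*Gata6* had 3 and 3 peaks in skin, 3 and 3 in thymocytes, and 3 and 4 in brain, so that skin and thymocytes had equal counts. Per 10000 list peaks this was 2.68 and 2.77 in skin, 0.666 and 0.772 in thymocytes, and 0.254 and 0.366 in brain. *Ovol1*, in a window with 13 other protein-coding genes, had 2 and 2 peaks in skin, 2 and 2 in thymocytes, and 3 and 2 in brain. Scaled in the same way, *Ovol1* had 1.78 and 1.84 in skin, 0.444 and 0.514 in thymocytes, and 0.254 and 0.183 in brain.

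*Grhl3*, a factor of barrier formation, had 1 and 1 peaks in skin, 3 and 2 in thymocytes, and 3 and 3 in brain. *Tfap2a* had 1 and 1 peaks in skin, 2 and 1 in thymocytes, and 5 and 5 in brain. Per 10000 list peaks both genes had 0.892 and 0.922 in skin. The thymocyte and brain values were lower in every list, between 0.254 and 0.666 at *Grhl3* and between 0.257 and 0.458 at *Tfap2a*. Each of these skin values is 1 peak divided by the length of a short list. In lists of equal length, both genes had 1 and 1 peaks in skin, 1 and 1 in thymocytes, and 0 and 0 in brain.

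No skin peak was found at *Klf4*, *Grhl1* or *Hopx*. *Klf4* had 1 and 1 peaks in thymocytes and 2 and 1 in brain, *Grhl1* had 1 and 2 in thymocytes and 2 and 2 in brain, and *Hopx* had 0 and 1 in thymocytes and 2 and 1 in brain. *Zfp750*, a target of p63, had 0 and 1 peaks in skin, 1 and 1 in thymocytes, and 1 and 1 in brain. The nearest skin peaks to a start site in the 2 lists lay 188 and 420 kb away at *Klf4*, 208 and 115 kb at *Grhl1* and 532 and 310 kb at *Hopx*, where the median over all genes was 109 and 114 kb.

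**Figure D1:**
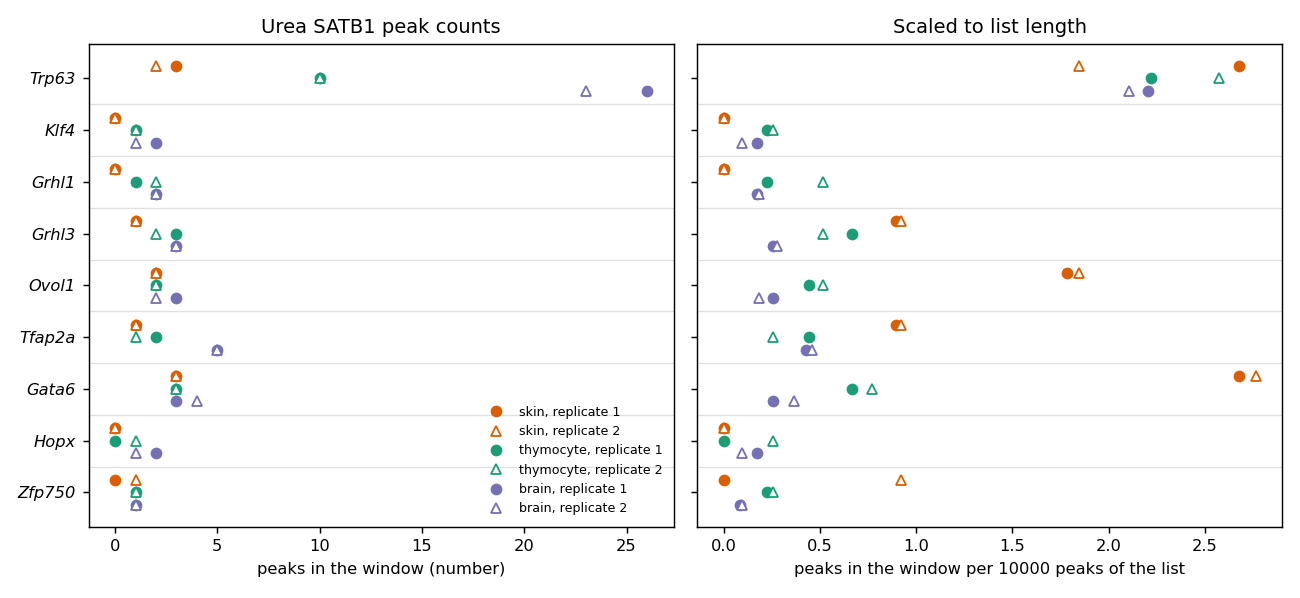
SATB1 peaks overlapping each gene body with 100 kb flanks in the 6 urea lists, as numbers (left) and per 10000 peaks of the list (right). Each point is 1 list, with filled circles for replicate 1 and open triangles for replicate 2. At *Trp63* skin has 3 and 2 peaks, the fewest of the 3 cell types, and at *Gata6* skin stands highest after scaling, with 2.68 and 2.77.

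By number, both skin values lay below all 4 thymocyte and brain values at 4 of the 9 genes (*Trp63*, *Klf4*, *Grhl1* and *Grhl3*), where 58.7% of all protein-coding genes did so, and above them at 0. Per 10000 list peaks, skin lay below the other 4 lists at 2 genes (*Klf4* and *Grhl1*), against 29% of all genes, and above them at 4 genes (*Grhl3*, *Ovol1*, *Tfap2a* and *Gata6*), against 30.2% of all genes. A skin site present in both lists was found at 5 of the 9 genes, against 43.3% of all genes. With 9 genes, each count lies close to the number that the share of all genes would give, and none is read as particular to these genes. An exact two-sided permutation test of 2 skin against 4 other lists has 15 arrangements and cannot give a p below 0.0667. By this test 3 members reached that p by number and 4 per 10000 list peaks, the smallest Benjamini-Hochberg adjusted p over all 22089 genes was 0.227 and 0.141, and 0 genes had an unadjusted p under 0.05. In the lists of equal length, skin lay below the others at 0 genes, against 3.77% of all genes, and above them at 2 genes, against 10.4% of all genes. The 2 were *Ovol1*, with 2 and 2 skin peaks against 1 in each other list, and *Gata6*, with 3 and 3 against 2 in each. Because the cut removes weaker peaks mainly from the thymocyte and brain lists, it compares unlike depths. Both *Ovol1* skin sites have a peak in all 6 uncut lists, and at *Gata6* 1 site is in the skin lists alone.

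The same counts were made for 3 other lists of genes. Over all genes, 58.7% had fewer skin peaks by number, and 29% had fewer and 30.2% more per 10000 list peaks. Of 20 other epidermal regulators, 10 had fewer skin peaks by number, and 3 had fewer and 8 had more per 10000 list peaks. *Ehf*, an ETS factor of epithelia, had the most of that list with 2.72 skin peaks per 10000. Of 12 thymocyte transcription factors, 9 had fewer skin peaks by number, and 3 had fewer and 4 had more per 10000. Among these, *Tcf12*, an E protein gene, had the most with 3.63. Of 12 transcription factors of cortical neurons, 8 had fewer by number, and 2 had fewer and 4 had more per 10000. With so few genes per list, none of these counts is read as particular to a list. The median skin value per 10000 was 0.907 over the 9 genes, 0.223 over the other epidermal regulators, 0.684 over the thymocyte factors, 1.13 over the cortical factors and 0.446 over all genes. In the same order, the median skin counts were only 1, 0.25, 0.75, 1.25 and 0.5 peaks. The median windows were 229, 224, 291, 208 and 215 kb, and the values were not scaled to window length.

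Merging the 6 lists gave 56 SATB1 sites in the 9 windows, of which 28 lay at *Trp63* and between 1 and 6 at each other gene. Of the 56, 8 had a peak in all 6 lists (14.3%, against 5.20% of 139604 merged sites of the genome). Another 8 were in both thymocyte and both brain lists but in no skin list (14.3%, against 14.7%), and 18 were in the brain lists alone (32.1%, against 34.6%). The skin lists alone held 1 (1.79%, against 0.713%), and the thymocyte lists alone held 1 (1.79%, against 0.417%). The other 20 were in 1 list of a pair in at least 1 cell type (35.7%, against 44.2%). Brain-only sites were found at *Trp63* (12), *Tfap2a* (4), *Grhl1* (1) and *Grhl3* (1).

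**Figure D2:**
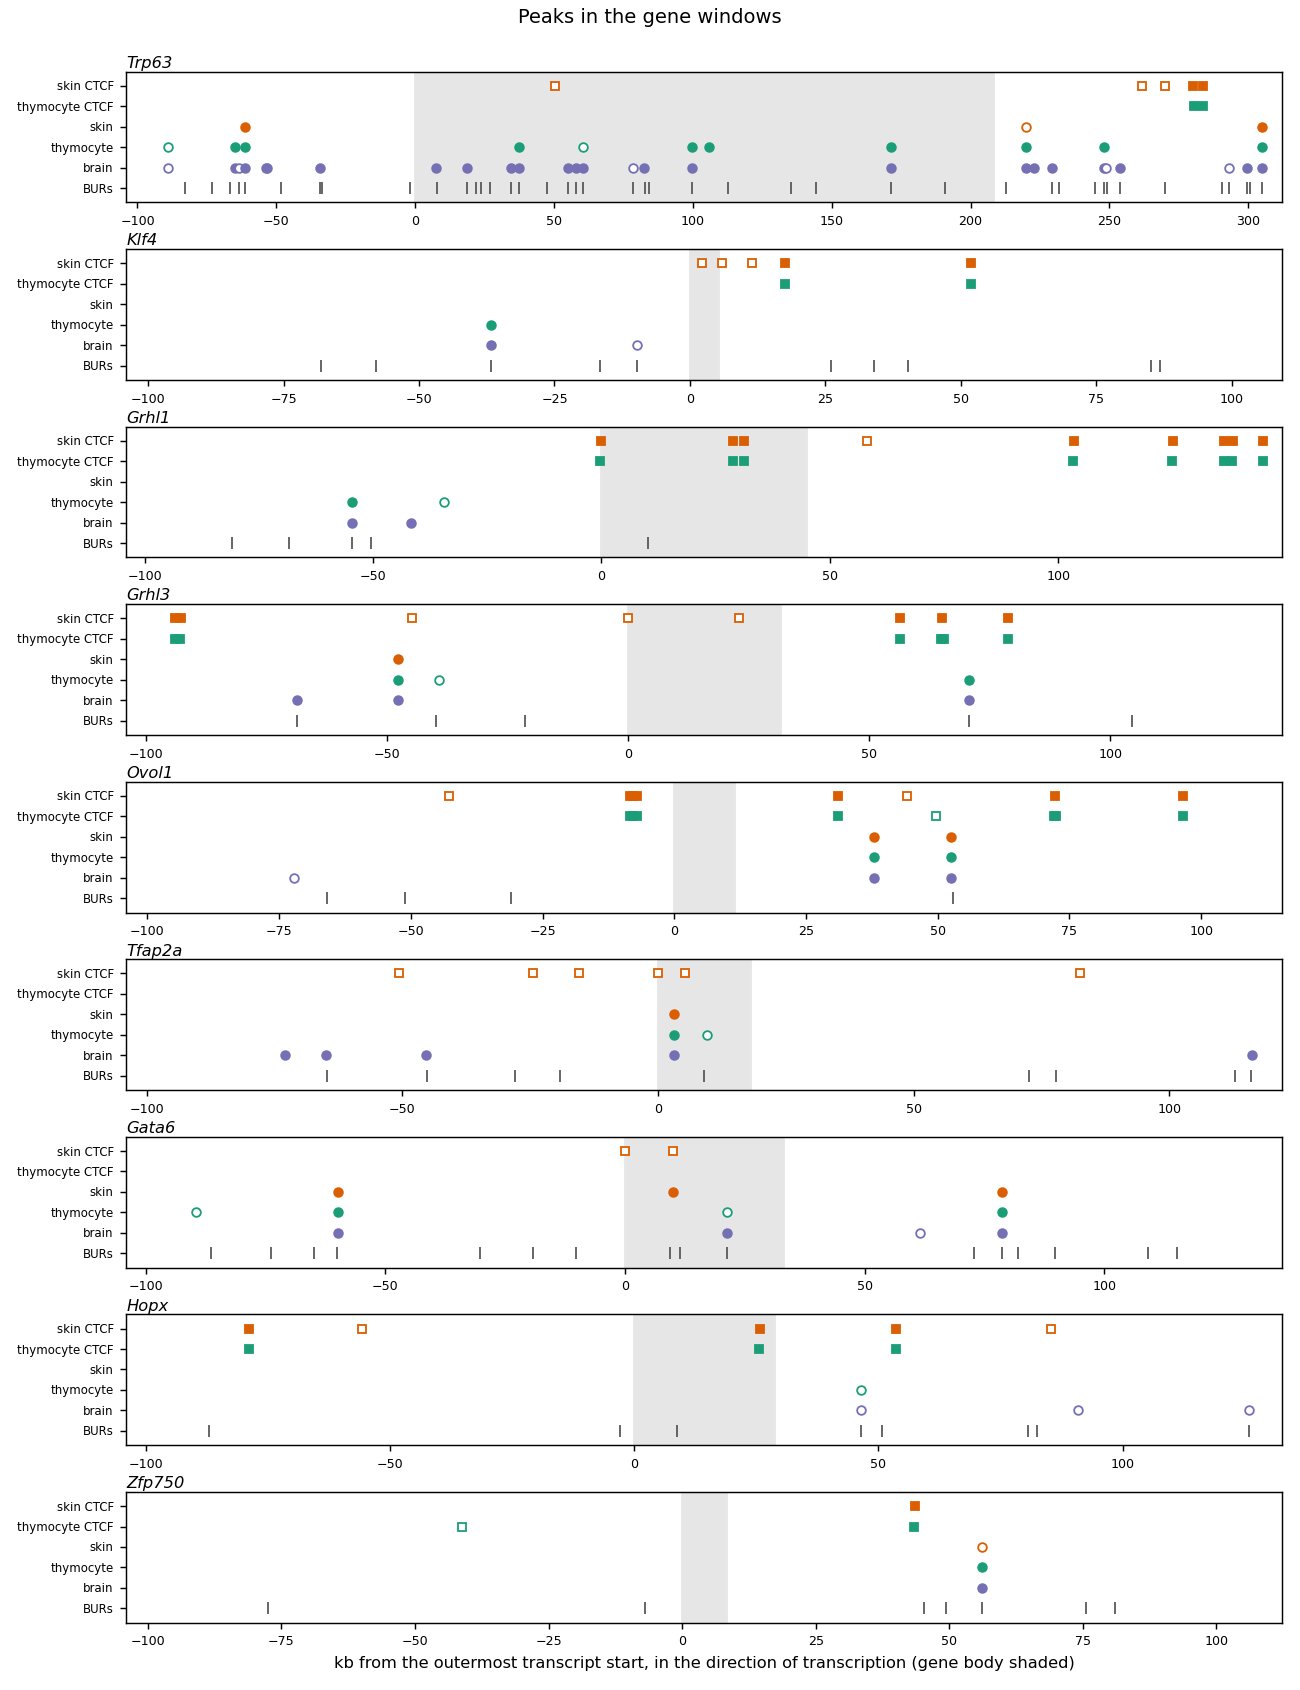
Positions of SATB1 sites in skin, thymocytes and brain (circles), CTCF peaks (squares) and BURs (ticks) in the 9 windows, in kb from the outermost transcript start in the direction of transcription, with the gene body shaded. Filled circles are sites in both lists of a cell type and filled squares are CTCF peaks that overlap one of the other cell type. Skin sites lie outside the gene bodies except at *Tfap2a* and *Gata6*, and the body of *Trp63* holds thymocyte and brain sites and no skin site.

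Of the skin sites, 9 were present in both skin lists, at *Trp63* (2), *Grhl3* (1), *Ovol1* (2), *Tfap2a* (1) and *Gata6* (3). Of these, 8 had a peak in every thymocyte and brain list (88.9%, exact 95% interval of counting error 51.8 to 99.7%), where 80.1% of the 9076 such sites of the genome did. BURs were overlapped by 5 of the 9 (55.6%, interval 21.2 to 86.3%), where the share over the genome was 81.4%. Distances below are from the middle of a site to the nearest annotated transcript start.

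The strongest skin site was at *Gata6*, 78.7 kb downstream of the start at chr18:11130800-11131524, outside any gene and on a BUR of in vitro fold enrichment 12.7. Fold enrichment, the summit signal over the background estimated around it in that library, was 19.1 and 18.1 in skin, 26.9 and 26.2 in thymocytes, and 19.3 and 20.5 in brain. In skin it ranked above 89.1% and 87.5% of the peaks of its list. A second *Gata6* site, 59.8 kb upstream at chr18:10992368-10992997 and also on a BUR, had 8.80 and 6.75 in skin, 21.5 and 19.9 in thymocytes, and 23.0 and 24.5 in brain. It stood above 98.9% and 99.4% of brain peaks but only 54.7% and 39.8% of skin peaks.

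The third *Gata6* site was the one skin site absent from all thymocyte and brain urea lists. It lay in an intron of the gene, 9.98 kb downstream of its start at chr18:11062371-11062605, with fold enrichments of 10.1 and 7.16 in the 2 skin lists. It overlapped no BUR, the nearest being 291 bp away, and it overlapped a skin CTCF peak of fold enrichment 10.0 and a standard SATB1 peak of thymocytes in replicate 2. Among 996 skin-only SATB1 sites of the genome, 76.1% overlapped a skin CTCF peak and 61.4% a standard SATB1 peak, where 1.86% and 2.52% of 7265 sites in all 6 lists did. Whether the CTCF signal has a part in such SATB1 peaks was not tested.

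At *Trp63*, the stronger skin site was the one whose BUR is printed above, at chr16:25988638-25989296 in an intron of the neighbouring gene *Leprel1*, a prolyl hydroxylase gene, 187 kb downstream of the nearest *Trp63* start. Fold enrichments were 10.9 and 12.9 in skin, 23.1 and 24.7 in thymocytes, and 19.2 and 18.9 in brain. The weaker site lay 61.2 kb upstream at chr16:25622383-25622861, outside genes and on a BUR, with 5.45 and 5.12 in skin, 6.68 and 6.01 in thymocytes, and 6.11 and 7.72 in brain. A site 102 kb downstream, on no BUR, was in skin replicate 1 with 4.82 and not in replicate 2, and was in all thymocyte and brain lists.

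At *Ovol1*, a zinc-finger repressor gene of differentiating keratinocytes, both skin sites lay beyond the end of the gene. The one in the *Snx32* intron (chr19:5507717-5508266, 52.6 kb downstream of the start), whose BUR is printed above, had 6.92 and 7.57 in skin, 23.1 and 24.2 in thymocytes, and 20.7 and 20.3 in brain. The other, 38.0 kb downstream at chr19:5522388-5522831 and 14.2 kb from the nearest BUR, ranked below the middle of every list, with 7.13 and 5.53 in skin, 6.10 and 4.16 in thymocytes, and 4.98 and 5.97 in brain.

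At *Grhl3* the site lay outside genes, 47.7 kb upstream at chr4:135176976-135177484 and 7.50 kb from the nearest BUR. Its fold enrichments were 5.03 and 4.30 in skin, 15.6 and 13.3 in thymocytes, and 12.7 and 16.8 in brain. It ranked above 12.2% and 4.50% of skin peaks and above 86.4% and 78.2% of thymocyte peaks.

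*Tfap2a* had the one site at a start. It lay in an intron of the gene, which overlaps the gene *Gm16989* there, at chr13:40825824-40826297 and 0.273 kb upstream of an inner start site of the gene, 5.44 kb from the nearest BUR. Fold enrichments were 6.29 and 6.96 in skin, 13.2 and 13.7 in thymocytes, and 8.44 and 7.29 in brain. A urea SATB1 peak within 1 kb of a start in all 6 lists was found at this 1 gene of the 9, against 0.702% of all protein-coding genes.

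For the genes without a skin site in both lists, the shared thymocyte and brain site was as follows. *Klf4* had one on a BUR 36.8 kb upstream, in an intron of *Gm12511* at chr4:55581865-55582442, with 4.83 and 6.24 in thymocytes and 13.4 and 11.5 in brain. *Grhl1* had one on a BUR 54.7 kb upstream, in an intron of *Taf1b* at chr12:25202266-25202722, with 7.37 and 10.9 in thymocytes and 11.7 and 12.2 in brain. *Zfp750* had one on a BUR 56.1 kb downstream, in an intron of *Tbcd* at chr11:121324199-121324797, with 5.59 and 12.7 in thymocytes, 16.6 and 15.2 in brain, and 5.32 in skin replicate 2 alone. *Hopx* had 0 such sites, and its peaks in thymocyte replicate 2 and brain replicate 1 at chr5:77497443-77497956 had 8.58 and 12.7.

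The 8 sites in all 6 lists ranked high in thymocytes and brain and lower in skin. Their median percentile of fold enrichment within the list, averaged over replicates, was 87.9 in thymocytes, 91.1 in brain and 40.2 in skin. Over the 7268 skin sites of the genome with a peak in all 6 lists, these medians were 89.1, 90.8 and 59.1. The lists differ in length, and a percentile in the short skin lists and one in the long brain lists stand for different depths of a list.

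**Figure D3:**
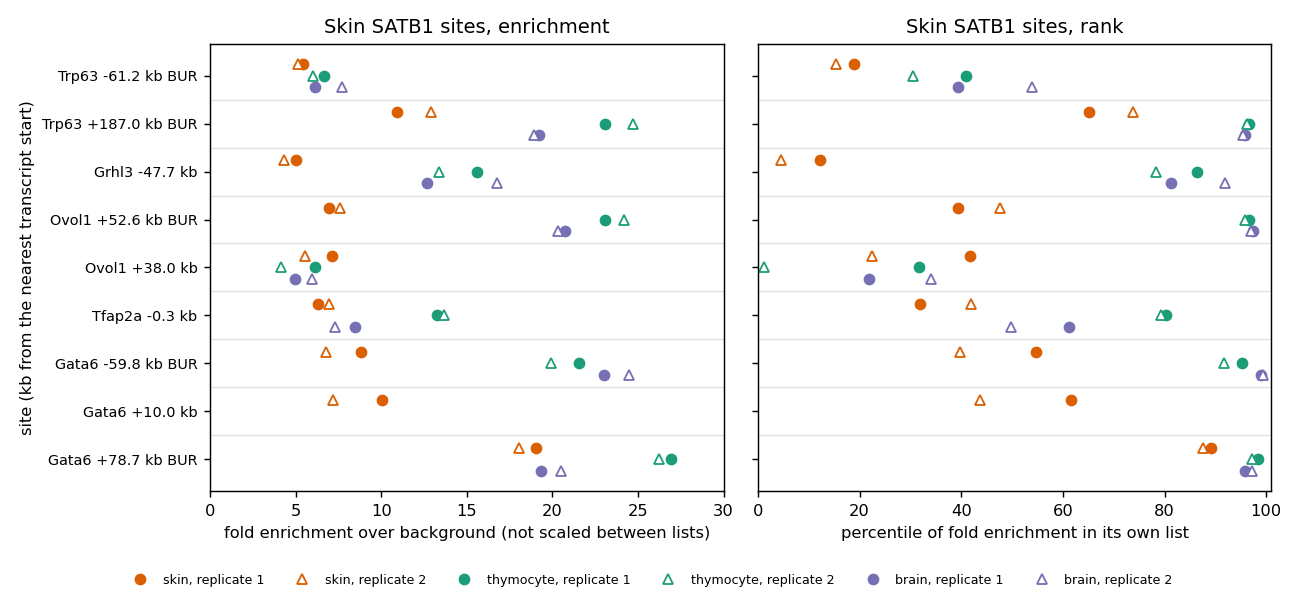
Fold enrichment (left) and its percentile within the list (right) at the 9 sites present in both skin lists, named by gene, distance from the nearest transcript start and overlap with a BUR. Each point is 1 list, with filled circles for replicate 1 and open triangles for replicate 2. Only the *Gata6* site at 9.98 kb lacks thymocyte and brain points, and the *Gata6* site at 78.7 kb is the strongest in skin with 19.1 and 18.1.

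BURs were abundant at *Trp63* (103 per Mb) and *Gata6* (68.6 per Mb), and between 18.9 (*Ovol1*) and 48.7 (*Klf4*) per Mb at the other 7 genes, where the median gene had 45.6 per Mb with quartiles of 28.2 and 76.0. The *Trp63* window was also the richest of the 9 in A and T, at 60.5%, and *Ovol1* the poorest, at 50.0%, with a median of 55.7% over all genes. Of the 106 BURs, SATB1 bound 4.72 and 5.66% in the skin lists (5.19% ± 0.667, SD, n = 2), 12.3 and 15.1% in the thymocyte lists (13.7% ± 2.00) and 33.0 and 28.3% in the brain lists (30.7% ± 3.34). Over all 238380 BURs the shares were 3.64% ± 0.0504, 13.4% ± 1.16 and 34.8% ± 2.03. The order of the cell types in the 9 windows was that of the genome and of the lengths of the lists.

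In the *Trp63* window, 2 and 2 of 42 BURs were bound in skin, 6 and 7 in thymocytes, and 21 and 17 in brain, or 45.2% ± 6.73 in brain. At *Gata6*, 2 and 2 of 16 were bound in skin, 2 and 3 in thymocytes, and 3 and 3 in brain. At *Tfap2a*, 0 of 9 BURs were bound in skin or thymocytes and 3 in each brain list. At *Ovol1* the same BUR, 1 of 4, was bound in all 6 lists.

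**Figure D4:**
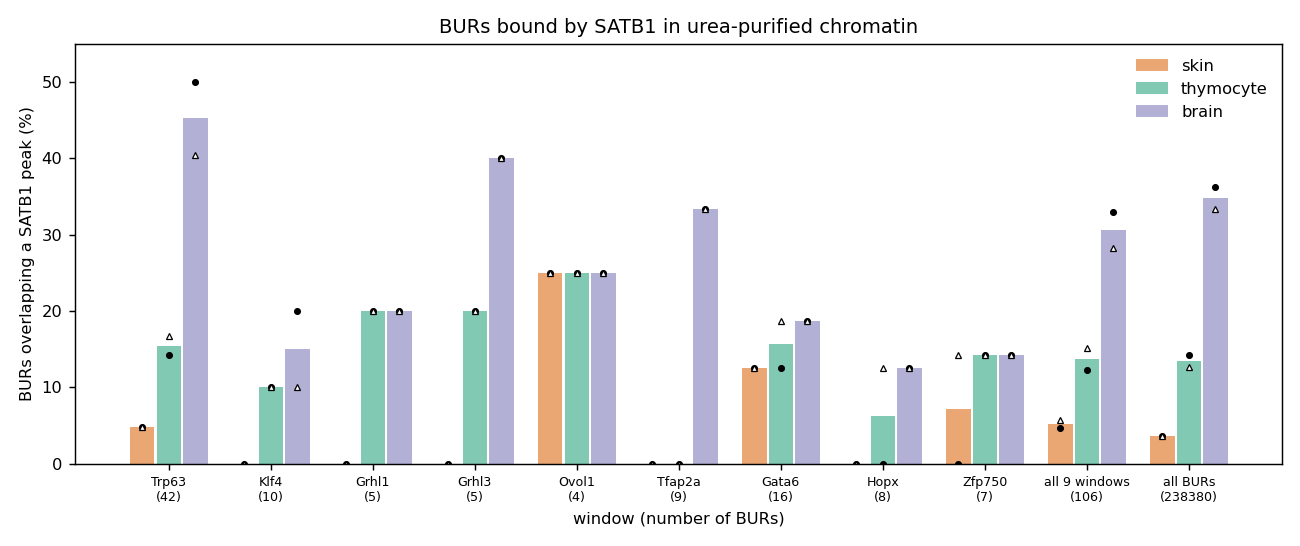
Percentage of BURs that overlap a SATB1 peak in skin, thymocytes and brain, for each window, for the 9 windows together and for all BURs, with the number of BURs in brackets. Bars are means of 2 lists, black circles replicate 1 and white triangles replicate 2. Brain stands at 45.2% at *Trp63* and 30.7% over the 9 windows, and skin at 5.19%.

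Of the 106 BURs, 70 overlapped no urea SATB1 peak (66.0%, against 59.5% on chromosomes 1 to 19, X and Y), 5 overlapped one in all 6 lists (4.72%, against 2.86%) and 31 in 1 to 5 lists. Median in vitro fold enrichment was 5.46 for the 70 unbound BURs, 7.40 for the 31 and 12.7 for the 5 bound in all lists. Over the genome it was 5.29, 6.59 and 10.2. The 5 were not richer in A and T than the unbound ones, with medians of 62.9% and 65.0%. From the other side, 50.0 and 60.0% of skin SATB1 peaks in the windows lay on a BUR (55.0% ± 7.07, SD, n = 2), against 78.9% ± 0.699 over the whole lists. In thymocytes this was 63.0% ± 9.22 against 76.7% ± 1.31, and in brain 74.0% ± 3.65 against 72.9% ± 0.109.

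CTCF peaks were more numerous in skin than in thymocytes around these genes, as around most genes. The windows held 49 skin and 31 thymocyte CTCF peaks, in lists of 31509 and 20323. There were more in skin at 7 of the 9 genes, all but *Ovol1* (8 and 8) and *Zfp750* (1 and 2), against 64% of all protein-coding genes. Of the 49 skin peaks, 22 overlapped no thymocyte CTCF peak (44.9%, exact 95% interval of counting error 30.7 to 59.8%), against 46.5% of all skin CTCF peaks, and of the 31 thymocyte peaks 2 overlapped no skin peak (6.45%, interval 0.791 to 21.4%), against 16.5%. With the skin list cut to the 20323 peaks of highest −log10 q, the length of the thymocyte list, 30.8% of 39 skin peaks overlapped no thymocyte peak. A second thymocyte CTCF sample was not analysed here, so with 1 list per cell type there is no check between replicates.

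*Tfap2a* had 6 skin CTCF peaks and 0 in thymocytes, the nearest thymocyte peak to its starts being 110 kb away, and *Gata6* had 2 and 0, with 166 kb to the nearest. A window with CTCF peaks in skin and none in thymocytes was found at these 2 genes of 9 and at 9.95% of all genes. A CTCF peak within 1 kb of a start was found in skin at 4 genes (*Grhl1*, *Grhl3*, *Tfap2a* and *Gata6*), against 17.3% of all genes, and in thymocytes at *Grhl1*, against 14.1%. The start peaks of *Grhl3* (fold enrichment 4.15), *Tfap2a* (3.48) and *Gata6* (4.84) had no overlapping thymocyte peak, and all were below the median of the skin CTCF list, 5.68.

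The strongest skin CTCF peak without a thymocyte peak was at *Trp63*, outside genes at chr16:25953566-25953972, with a fold enrichment of 14.4, and it overlapped standard SATB1 peaks of both replicates. The strongest such peak had 10.0 at *Gata6* in the intron described above, 7.36 at *Hopx*, 6.83 at *Tfap2a*, 6.43 at *Klf4*, 6.16 at *Grhl1*, 5.76 at *Grhl3* and 5.26 at *Ovol1*, and *Zfp750* had none. Over the 22 the median was 5.05, and over the 27 skin peaks shared with thymocytes it was 7.23. In the whole skin list these medians were 4.69 and 6.96.

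**Figure D5:**
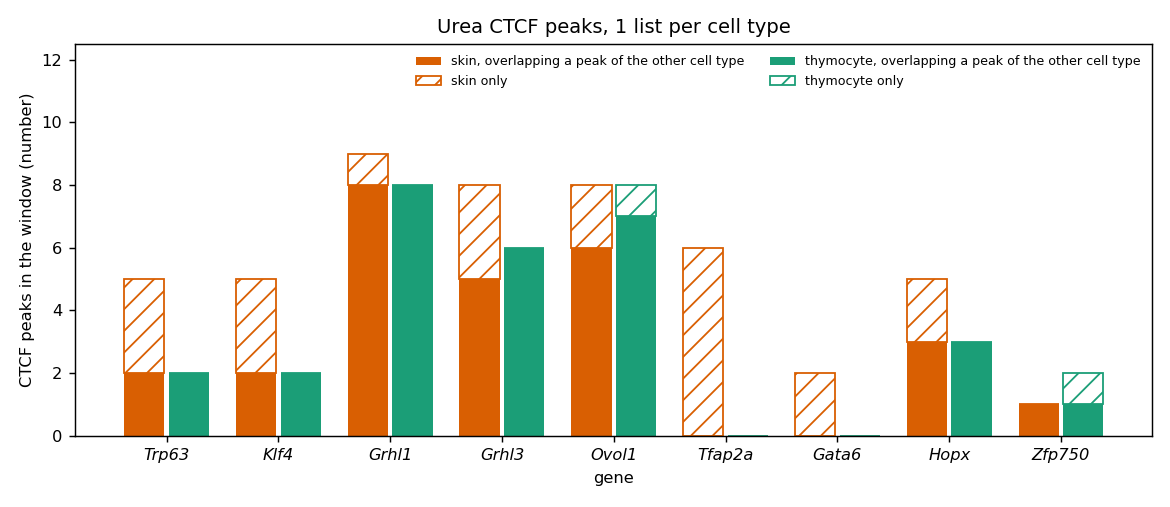
Number of CTCF peaks in the window of each gene in urea chromatin of skin and thymocytes, 1 list each. Filled parts overlap a peak of the other cell type and hatched parts do not. *Tfap2a* with 6 peaks and *Gata6* with 2 have peaks in skin and 0 in thymocytes.

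In standard ChIP-seq of thymocytes the windows held 60 and 36 SATB1 peaks, beside 23 and 23 in urea ChIP-seq of the same cells. The median per gene was 7 and 2 standard peaks over the 9 genes and 8 and 4 over all genes, and 2 and 2 urea peaks over both. At *Trp63* the order was the other way round, with 1 and 2 standard and 10 and 10 urea peaks. So it was at *Gata6*, with 0 and 1 standard and 3 and 3 urea peaks, and at *Tfap2a* both methods gave 2 and 1. *Ovol1* had the most standard peaks, 16 and 13, of which 13 and 11 lay within 1 kb of the start of a protein-coding gene. *Gata6* (0 and 1) had the fewest over both lists. A BUR was overlapped by 1.67 and 2.78% of the standard peaks in the windows, against 3.78 and 5.20% of the whole lists, and a thymocyte CTCF peak by 30.0 and 27.8%, against 22.2 and 18.0%. Of the urea thymocyte SATB1 peaks there, 0 of 23 in each list overlapped a thymocyte CTCF peak, against 0.653 and 0.728% of the whole lists, so that a count of 0 is near what the lists as a whole would give.

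A standard peak within 1 kb of a start was found in both lists at 2 of the 9 genes, *Klf4* and *Grhl1*, against 41.1% of all protein-coding genes. *Hopx* had one in replicate 1 alone. By the same rule 11 of 12 thymocyte transcription factors, 4 of 20 other epidermal regulators and 0 of 12 cortical factors had one. The nearest standard peak to a start lay 152 and 74.9 kb away at *Trp63* and 183 and 9.86 kb at *Gata6*, where the median over all genes was 0.136 and 6.78 kb.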

How the data were processed

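Peak lists of 11 samples were used, and the other 27 samples were not used here. Reads were aligned by the authors to NCBI37/mm9 (Bowtie2 2.3.1), and peaks of single samples were called with MACS2 2.2.7, at q-values up to 0.01. Per the deposited lists, each peak has a display score made by the authors' peak caller, a fold enrichment that is the ratio of summit signal to local background and is not scaled between samples, the −log10 of its p-value and q-value, and the distance of its summit from its start. The lists hold no counts, and read numbers of single samples are not given in the sources used here; the study describes the aligned read totals of its urea samples as similar. Precision is that of 2 replicates, and CTCF and the BUR map have 1 list each. Binomial intervals cover counting error of sites only. Groups and replicate numbers came from the labels, and the supplement of the study gives the thymocyte urea replicates the opposite numbers.

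Peaks overlapping a gene body with 100 kb flanks by at least 1 bp were counted for all protein-coding genes with Python 3.11.15, numpy 2.4.6 and scipy 1.17.1, pysam 0.24.0 read sequences from NCBIM37, and matplotlib 3.10.9 drew the plots. *Tfap2a* was matched through the synonyms of the RefSeq gene table. Skin was compared with thymocytes and brain by an exact two-sided permutation test over the 6 lists, with Benjamini-Hochberg adjustment over all genes, and a gene was counted where both skin values lay outside the range of the other 4. Calls of skin above the other lists were checked on simulated counts with raised skin values, in genes expected to hold at least 1 skin peak. Calls of skin below them were checked on a small made-up example only.

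At each member, the skin SATB1 sites in both skin lists were named (up to 3, by fold enrichment), or else the site of highest thymocyte fold enrichment in both thymocyte and both brain lists, and the skin CTCF peak of highest fold enrichment without a thymocyte peak. Single-list sites of *Trp63*, *Hopx* and *Zfp750* and the start peaks of CTCF were added after their values were seen. Printed BURs lie under named skin sites and outside UTRs. At most 4 genes of each other list were named, by skin peaks per 10000, and those of the cortical list are not reported here. The members and gene lists were chosen with earlier results of these data known. Results were recomputed with a −log10 q minimum of 5, flanks of 50 kb, 200 kb or none, overlap by summit, lists of equal size, 2.5 kb around a start or the outermost start, each list left out, and comparison within replicate numbers.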

Additional observations from a re-analysis of the deposited data

How the results depend on the processing

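The 8 results were recomputed under 78 alternatives in all, and in 63 the value stayed within 1.5 times of the count, within 1 SD of the replicates or within the exact 95% interval. Some of the 63 could not have moved. With 1 of 2 lists left out, the value that remains always lies within 1 SD of the mean of 2. Counted over gene bodies alone, where each skin list held 2 peaks, 1 gene had fewer skin peaks by number, and 1 had fewer and 2 had more per 10000 list peaks. There 0% of BURs were bound in skin, 15.4% in thymocytes and 44.2% in brain, and 0% of skin peaks lay on BURs. Of 2 skin sites, 50.0% were shared with all thymocyte and brain lists, and 66.7% of 12 skin CTCF peaks had no thymocyte peak. Why gene bodies differ from whole windows was not tested. In lists of equal size, 0 genes had fewer skin peaks by either measure, 2 had more per 10000, and 44.4% of the 9 skin sites were shared with all other lists, since that cut removes the weaker thymocyte and brain peaks. The share of BURs bound was 5.19% in thymocytes and 3.77% in brain. In skin it remained 5.19%, but the cut took skin replicate 1 only from 11210 to 10846 peaks and left replicate 2 whole. With 50 kb flanks, 3.91% of BURs were bound in skin and 35.7% of skin peaks lay on BURs, and with 200 kb flanks 1 gene had fewer skin peaks per 10000. The cause was not tested. At a −log10 q of at least 5, a standard peak at a start was left at 1 gene. Leaving out each urea list in turn gave 4 to 5 genes with fewer skin peaks by number, 2 to 3 with fewer and 4 to 5 with more per 10000, 4.72 to 5.66% of BURs bound in skin, 50.0 to 60.0% of skin peaks on BURs and 88.9 to 90.0% of skin sites shared. Leaving out a standard list gave 2 to 3 genes with a peak at a start. With the replicate number as a block, skin lay outside both other cell types within each number at the same counts of genes, 4 with fewer by number, 2 with fewer and 4 with more per 10000. By the rules used, leaving out a list or blocking can only keep or raise these counts of genes. That they did not fall is therefore no check on them. The replicate numbers do not pair the samples: the deviations of same-numbered lists correlated at 0.00515, 0.00825 and −0.0284 across genes. The short skin lists limit what can be said of weak skin sites.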
